A study of Homo sapiens with 15 samples.

Results

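The miR-183/96/182 cluster was described through its 3 main mature miRNAs, hsa-miR-182-5p, hsa-miR-183-5p and hsa-miR-96-5p, written below without the species prefix. They were taken by name from the 1707 mature miRNAs counted in miRNA-Seq libraries of U87-MG cells, an established human glioblastoma line. The cells fell into 5 groups of 3 libraries, all kept for 24 h at the stated oxygen level. Control cells, in which neither factor was targeted, were grown in 21% O2 (normoxia) or 1% O2 (hypoxia). Cells lacking HIF1α (HIF1α-KO), HIF2α (HIF2α-KO) or both (HIF1α/HIF2α-KO) were grown in 1% O2 only. The genes had been targeted with CRISPR/Cas9 from a lentiviral vector, with 1 guide RNA for each gene. Whether the knockout cells were clones or pools is not given in the sources used here. No control vector is described for the control cells either. Loss of a factor and exposure to the vector therefore cannot be told apart where knockout cells are compared with control cells. HIF1α and HIF2α are the oxygen-regulated subunits of the hypoxia-inducible transcription factors. No knockout group was cultured in normoxia, so hypoxia was compared with normoxia in control cells alone.

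The 3 miRNAs are processed from hairpins that lie close together and are transcribed as a single primary transcript. In each hairpin, Drosha and Dicer free a short duplex, and the strand that enters an Argonaute protein silences mRNAs that pair with its seed, which is bases 2 to 8. The cluster is best known from sensory organs, where it is needed in hair cells and photoreceptors. It is also abundant in many epithelial tumours and is expressed in glioma, where miR-182-5p has been linked to NF-κB signalling. mRNAs of FOXO transcription factors are among the known targets of miR-96-5p and miR-182-5p.

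The mature sequences (RefSeq, GRCh38.p14) are shown 5′ to 3′ because the 3 members carry related but distinct seeds, given in capitals, and miR-1271-5p is added because it has the seed of miR-96-5p.
miR-182-5p: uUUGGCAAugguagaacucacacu
miR-183-5p: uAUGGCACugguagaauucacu
miR-96-5p: uUUGGCACuagcacauuuuugcu
miR-1271-5p: cUUGGCACcuagcaagcacuca
Counted from the 5′ end, miR-182-5p and miR-183-5p had the same base at 18 of 22 positions and at 5 of the 7 seed positions. The seed of miR-96-5p matched that of each of its neighbours at 6 of 7 positions, whereas over the whole length it matched miR-182-5p at 12 of 23 positions and miR-183-5p at 13 of 22. Among the human mature miRNAs in the RefSeq table, no other miRNA had the seed of miR-182-5p or miR-183-5p, and only miR-1271-5p shared that of miR-96-5p. How reads that match more than 1 of these sequences were assigned is not given in the sources used here.

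The hairpins MIR182 and MIR96 are printed with both mature arms in capitals, since the counts of the arms are compared below.
MIR182: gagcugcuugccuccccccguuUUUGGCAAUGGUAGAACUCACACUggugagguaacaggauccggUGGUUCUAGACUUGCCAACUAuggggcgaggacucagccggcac
MIR96: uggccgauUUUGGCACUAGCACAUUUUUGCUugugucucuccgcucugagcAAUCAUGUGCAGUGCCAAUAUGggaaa
MIR182 is at chr7:129770383-129770492, MIR96 at chr7:129774692-129774769 and MIR183 at chr7:129774905-129775014 of GRCh38, all on the minus strand. The cluster spans 4632 bases, with 135 bases between MIR96 and MIR183 and 4199 bases between MIR182 and MIR96. No other annotated gene overlapped this span, so the hairpins are intergenic. The nearest gene on the lower side is NRF1, a transcription factor gene on the plus strand that ends 13300 bases away. On the upper side, the long non-coding RNA gene AC084864.1 lies 8355 bases away on the minus strand.

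Total counts ranged from 10360337 to 22496373 per library, and 562 miRNAs passed the filter on low counts, all 3 members among them. No label states that the 3 libraries of a group came from separate cultures, so p-values measure the spread between libraries, which may be technical. As mRNAs were not sequenced, the targeted genes could not be checked in these libraries. The supplementary methods name immunofluorescence staining or western blotting as the check of the knockouts. The supplementary figure legends name primary glioblastoma cells for these images. They describe no such image of U87-MG knockout cells. The hypoxia-responsive miR-210 (both arms summed) was at 1057 to 1354 normalized CPM in normoxic and 971 to 1221 in hypoxic control libraries, with overlapping ranges and no higher level under hypoxia. It was at 250 to 453 in the HIF1α-KO libraries, 1267 to 2046 in the HIF2α-KO libraries and 156 to 364 in the libraries of the double knockout. miR-21-5p, which is abundant in glioblastoma, ranked first of 1707 miRNAs, and the neuronal miR-124-3p was at 0 in 10 of 15 libraries. The endothelial miR-126 (both arms summed) set 6 libraries, at 3.90 to 6.95 CPM, apart from the other 9, at 14.5 to 51.9 CPM. Both sets occurred in each hypoxic group, but all 3 normoxic libraries were among the 9. The results on the cluster are given with this split as a covariate below.

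All 3 members were detected in every library, far above the 3 counts taken as the smallest detectable amount. miR-182-5p had 1651 to 4686 counts per library, miR-183-5p 430 to 1485 and miR-96-5p 218 to 698. Their mean levels over the 15 libraries were 209, 54.9 and 30.2 normalized CPM, which are counts scaled to a common library size with TMM composition factors, and they ranked 92nd, 149th and 175th of 1707. The counting error of 1 value was at most 2.46% for miR-182-5p, 4.82% for miR-183-5p and 6.77% for miR-96-5p. For each miRNA this was smaller than its own coefficients of variation between libraries of a group. The lowest of these were 5.61% for miR-182-5p, 18.1% for miR-183-5p and 11.2% for miR-96-5p, and the highest of all was 27.7%. Within groups, the pooled SD on the log2 CPM scale was 0.20, 0.35 and 0.24. The median of all 562 miRNAs was 0.34, so miR-182-5p and miR-96-5p were measured with a smaller replicate spread than most miRNAs and miR-183-5p with about the median spread.

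The 5p strand made up nearly all mature product of each hairpin. Summed over the libraries, miR-182-5p had 43310 counts against 72 for miR-182-3p, a 5p share of 99.8% (exact 95% interval 99.79 to 99.87). The corresponding counts were 11604 and 46 for MIR183 (99.6%, 99.47 to 99.71), and 6351 and 19 for MIR96 (99.7%, 99.53 to 99.82). These intervals cover counting error only. The 3p arms reached at most 10, 8 and 5 counts in a library and did not pass the filter. They were therefore too low to be compared between groups. miR-1271-5p, the miRNA with the seed of miR-96-5p, had at most 1 count in a library and 0 in 10 of 15, so at this depth miR-96-5p was the one detectable miRNA with that seed.

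miR-182-5p, the most abundant member, was lowest in hypoxic control cells and higher in each of the 3 knockout groups. In hypoxic control cells its levels were 152, 185 and 130 normalized CPM in replicates 1 to 3, with a mean of 156 ± 27.7 (SD, n = 3). HIF1α-KO cells had 253, 229 and 188 (223 ± 32.7), HIF2α-KO cells 254, 227 and 237 (239 ± 13.4), and HIF1α/HIF2α-KO cells 253, 277 and 197 (242 ± 41.1). The lowest of the 9 knockout libraries, a HIF1α-KO library at 188, was just above the highest hypoxic control library at 185, so none of the knockout groups overlapped the hypoxic control. Normoxic control cells lay between them, at 164, 197 and 191 (184 ± 17.7), and overlapped the hypoxic control and HIF1α-KO cells. The lowest HIF1α/HIF2α-KO library and the highest normoxic library were equal to 3 digits, and the HIF2α-KO libraries all lay above the normoxic ones. Knockout and normoxic cells differed in both genotype and oxygen level. They were not tested against each other, and the share of all miRNAs without overlap between them was not determined.

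miR-183-5p differed little between groups in comparison with its spread. Hypoxic control cells had 46.5, 64.2 and 37.3 normalized CPM (49.3 ± 13.7, SD, n = 3) and normoxic control cells 39.2, 54.8 and 54.7 (49.5 ± 8.99). HIF1α-KO cells had 64.9, 53.9 and 41.1 (53.3 ± 11.9), and HIF2α-KO cells 67.4, 40.9 and 56.3 (54.9 ± 13.3). HIF1α/HIF2α-KO cells had 76.3, 75.8 and 49.9 (67.3 ± 15.1). The highest mean was that of HIF1α/HIF2α-KO cells, in which replicates 1 and 2 exceeded every other library and replicate 3 lay inside the range of the control cells. All knockout groups overlapped the hypoxic control.

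miR-96-5p, the least abundant member, was also lowest in hypoxic control cells, at 20.1, 28.1 and 21.9 normalized CPM (23.4 ± 4.19, SD, n = 3). HIF1α-KO cells had 36.8, 34.1 and 29.4 (33.4 ± 3.73) and HIF1α/HIF2α-KO cells 40.7, 30.9 and 35.4 (35.7 ± 4.92), and neither group overlapped the hypoxic control. HIF2α-KO cells had 34.9, 22.6 and 26.6 (28.0 ± 6.30), and 2 of these 3 libraries lay inside the range of the hypoxic control. Normoxic control cells had 25.4, 31.4 and 34.5 (30.5 ± 4.63) and overlapped every hypoxic group. In the order of the group means, neighbouring groups overlapped for each of the 3 members.

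**Figure D1:**
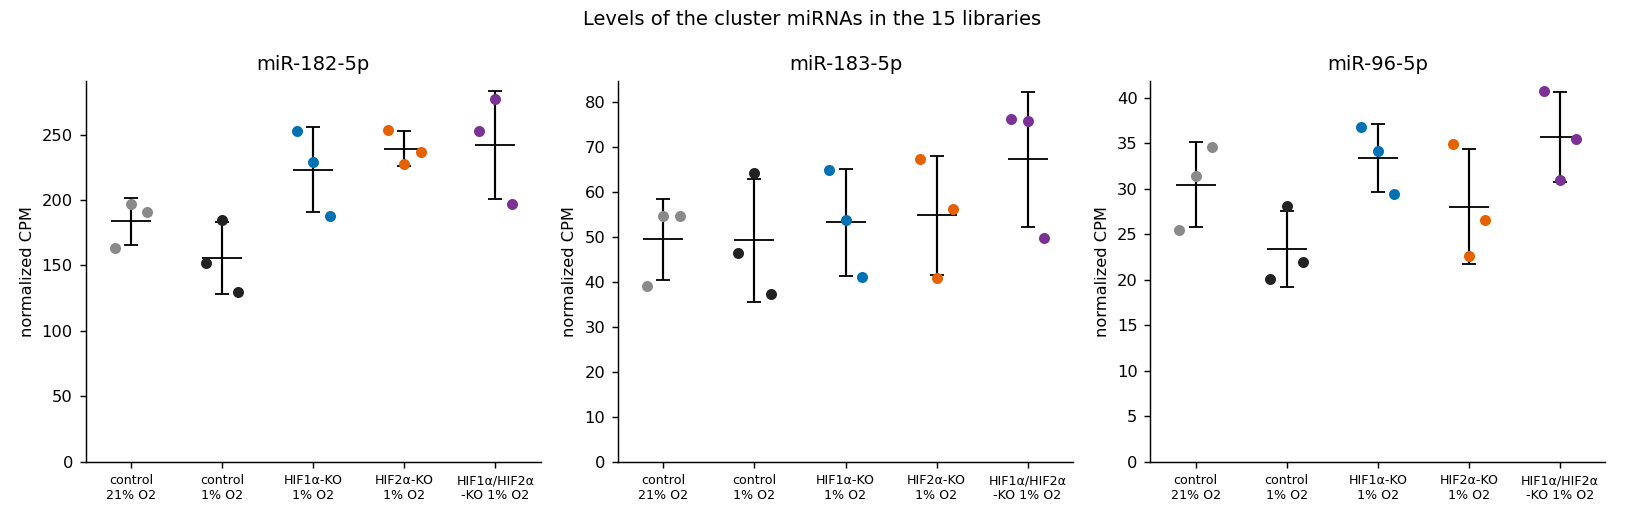
Normalized CPM (vertical axes, linear from 0) of miR-182-5p, miR-183-5p and miR-96-5p in each of the 15 libraries, by group; points are libraries, and the horizontal bars and whiskers give the mean and SD of 3 libraries. The 9 knockout libraries of miR-182-5p sit at 188 to 277, above the hypoxic control libraries at 130 to 185, while the miR-183-5p groups overlap.

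HIF1α/HIF2α-KO cells were compared with control cells under hypoxia to describe the knockout of both factors together. miR-182-5p rose 1.55-fold (log2 fold change 0.64, SE 0.17, 95% interval 0.28 to 1.00, edgeR adjusted p = 0.0394). miR-96-5p had a log2 fold change of 0.61 (SE 0.21, 0.17 to 1.05, adjusted p = 0.0742) and miR-183-5p one of 0.45 (SE 0.26, -0.12 to 1.01, adjusted p = 0.345), and neither passed the test. Hence 1 of 3 members passed, where 5.87% of the 562 miRNAs did, 7 of them higher (1.25%) and 26 lower, or 25 and 25 when libraries were scaled by total counts. The median log2 fold change of the members was 0.61, against -0.02 for all miRNAs tested. miR-182-5p and miR-96-5p did not overlap between the groups and were higher, as were 13.7% of all miRNAs, and the exact permutation test gave p = 0.1 for each, the smallest that 3 against 3 libraries can give.

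The call of miR-182-5p was close to the threshold. With the miR-126 split as a covariate its log2 fold change was 0.62 (adjusted p = 0.0434), and the Wald test of DESeq2 gave 0.65 (adjusted p = 0.0116). It did not pass with limma on quantile-normalized values (0.64, adjusted p = 0.0522), without a filter on low counts (0.67, 0.0609) or with only the 6 libraries compared in the edgeR fit (0.62, 0.0988). It was also lost when any of 4 libraries was left out. The edgeR values were then 0.64 (adjusted p = 0.0984) without control replicate 1, 0.55 (0.112) without control replicate 3, 0.62 (0.0982) without HIF1α/HIF2α-KO replicate 1 and 0.56 (0.0900) without HIF1α/HIF2α-KO replicate 2. In each of these fits miR-182-5p was higher in the knockout cells. miR-96-5p, in turn, passed with DESeq2 (0.62, adjusted p = 0.0457) and in none of the other settings.

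**Figure D2:**
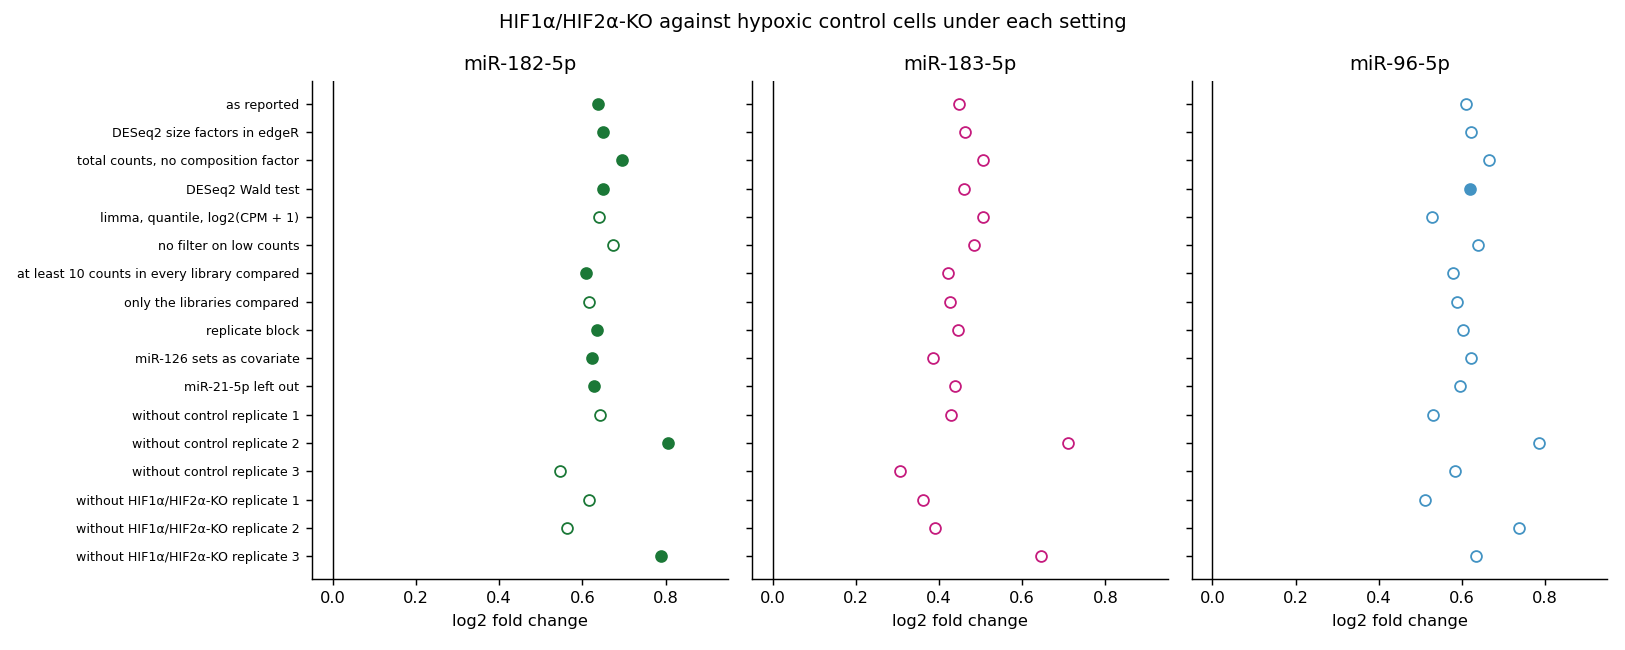
Log2 fold change (horizontal axes) of each member in HIF1α/HIF2α-KO against hypoxic control cells, as reported (top) and under 16 other settings; filled points have an adjusted p under 0.05, open points do not. All points lie to the right of 0, and the miR-182-5p points, from 0.55 to 0.80, are filled in some settings and open in others.

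HIF1α-KO cells were compared with control cells under hypoxia to describe the knockout of HIF1α without that of HIF2α. No member passed the test, whereas 1.25% of all miRNAs did, all 7 of them lower. With total counts 2 were higher and 5 lower, and with the size factors of DESeq2 1 was higher and 7 were lower. The log2 fold changes were 0.52 (SE 0.17, 95% interval 0.16 to 0.88, edgeR adjusted p = 0.180) for miR-182-5p, 0.51 (SE 0.21, 0.07 to 0.96, 0.310) for miR-96-5p and 0.11 (SE 0.26, -0.45 to 0.67, 0.957) for miR-183-5p. The unadjusted p-values of miR-182-5p (0.00806) and miR-96-5p (0.0253) were small, but 67 of the 562 miRNAs (11.9%) had an unadjusted p under 0.05. Both miRNAs were higher without overlap, as were 10.1% of all miRNAs (exact permutation p = 0.1 for each).

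HIF2α-KO cells were compared with control cells in the same way. edgeR called 0 of 562 miRNAs (0%), as did DESeq2 and limma, and 86 miRNAs had an unadjusted p under 0.05 in edgeR. miR-182-5p had a log2 fold change of 0.62 (SE 0.17, 95% interval 0.26 to 0.98, adjusted p = 0.124), which ranked 8th of 562 by p. miR-96-5p had 0.26 (SE 0.21, -0.18 to 0.70, 0.614) and miR-183-5p 0.15 (SE 0.26, -0.41 to 0.72, 0.860). miR-182-5p alone was higher without overlap (exact permutation p = 0.1), as were 9.07% of all miRNAs. Scaling by total counts lowered all miRNAs in this comparison, with a median log2 fold change of -0.15 in place of -0.01, and miR-182-5p, miR-96-5p and miR-183-5p were then at 0.48, 0.13 and 0.01. The 3 comparisons with the hypoxic control share the same 3 control libraries, so their values are not independent of each other.

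The knockout groups were then compared with each other to see whether the loss of HIF2α, or of both factors, differed from the loss of 1. None of the members passed in any of the 3 comparisons, in which edgeR called 1.07% (HIF2α-KO against HIF1α-KO), 1.42% (HIF1α/HIF2α-KO against HIF1α-KO) and 1.78% (HIF1α/HIF2α-KO against HIF2α-KO) of the miRNAs. For miR-182-5p the log2 differences were 0.10 (95% interval -0.26 to 0.46), 0.12 (-0.24 to 0.48) and 0.02 (-0.34 to 0.38). These intervals hold differences of either sign. For miR-183-5p the differences were 0.04 (-0.52 to 0.61), 0.34 (-0.23 to 0.90) and 0.30 (-0.27 to 0.86). miR-96-5p was at -0.25 (-0.69 to 0.19) in HIF2α-KO against HIF1α-KO cells, 0.10 (-0.34 to 0.53) in HIF1α/HIF2α-KO against HIF1α-KO cells and 0.35 (-0.09 to 0.79) in HIF1α/HIF2α-KO against HIF2α-KO cells. The adjusted p-values of these 9 differences ranged from 0.382 to 0.956. Scaling by total counts moved the median of all miRNAs to -0.13 in HIF2α-KO against HIF1α-KO cells, where miR-182-5p and miR-183-5p then had log2 differences of -0.078 and -0.13.

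Whether the effect of HIF1α knockout depended on HIF2α was tested with the interaction, the effect in HIF2α-KO cells minus that in cells with HIF2α. For miR-182-5p the interaction was -0.50 (SE 0.24, 95% interval -1.01 to 0.01, edgeR adjusted p = 0.475). The log2 fold change with HIF1α knockout was 0.52 in cells with HIF2α and 0.02 in HIF2α-KO cells, and this difference did not pass the test. The values were 0.18 (-0.61 to 0.98, 0.858) for miR-183-5p and -0.17 (-0.79 to 0.46, 0.846) for miR-96-5p. edgeR, DESeq2 and limma each called 0 of 562 miRNAs for the interaction (0% in edgeR), and 59 had an unadjusted p under 0.05 in edgeR.

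Hypoxia was compared with normoxia in control cells to measure the response to oxygen with both factors present. No member passed the test, and neither did the hypoxia reference, with log2 fold changes of -0.19 for miR-210-3p (edgeR adjusted p = 0.841) and 0.04 for miR-210-5p (0.971). A miR-210 response to hypoxia was thus not detectable in these libraries. The log2 fold changes of the members were -0.24 (SE 0.17, 95% interval -0.60 to 0.12, edgeR adjusted p = 0.791) for miR-182-5p, -0.38 (SE 0.21, -0.82 to 0.06, 0.724) for miR-96-5p and -0.01 (SE 0.26, -0.57 to 0.56, 0.996) for miR-183-5p. All 3 overlapped between the groups, with exact permutation p of 0.2, 0.2 and 1, while 7.83% of all miRNAs were higher and 9.96% lower without overlap. edgeR, DESeq2 and limma each called 0 of 562 miRNAs (0% in edgeR), and 35 had an unadjusted p under 0.05 in edgeR. All normoxic libraries had more miR-126 than 2 of the 3 hypoxic control libraries. With the miR-126 split as a covariate the values were -0.22 for miR-182-5p, -0.40 for miR-96-5p and 0.09 for miR-183-5p.

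**Figure D3:**
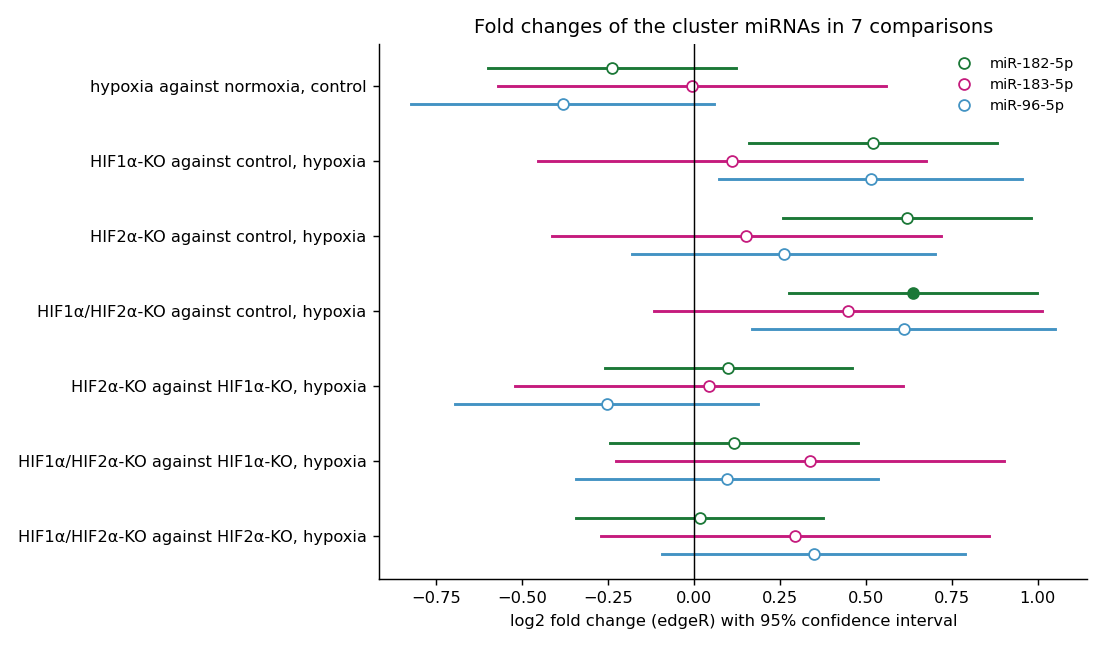
Log2 fold changes of the 3 members from the edgeR fit (horizontal axis) in 7 comparisons, with 95% confidence intervals as lines; a filled point has an adjusted p under 0.05. The single filled point is miR-182-5p in HIF1α/HIF2α-KO against hypoxic control cells, at 0.64, and the intervals of the comparisons between knockout groups all include 0.

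The levels were also compared within the sets of libraries with less and with more miR-126. Among the libraries with less miR-126, miR-182-5p was at 130 and 185 normalized CPM in hypoxic control libraries, 229 and 253 in HIF1α-KO libraries, 227 in a HIF2α-KO library and 197 in a HIF1α/HIF2α-KO library. Among those with more, it was at 152 in a hypoxic control library, 188 in a HIF1α-KO library, 237 and 254 in HIF2α-KO libraries, 253 and 277 in HIF1α/HIF2α-KO libraries and 164 to 197 in normoxic control libraries. Since no knockout library of miR-182-5p lay below a hypoxic control library in the whole series, the order within the sets follows from that and adds nothing to it. These sets hold 1 or 2 libraries of a hypoxic group each and were not tested separately. With the split as a covariate, miR-182-5p, miR-183-5p and miR-96-5p had log2 fold changes of 0.52, 0.12 and 0.51 in HIF1α-KO and of 0.61, 0.09 and 0.28 in HIF2α-KO against hypoxic control cells, none of which passed.

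Other lists of marker miRNAs varied between libraries as well. The 6 epithelial miRNAs found of 7 listed summed to 48.5 to 118 normalized CPM in hypoxic control libraries, 42.8 to 85.3 in HIF1α-KO libraries, 54.1 to 104 in HIF2α-KO libraries and 37.6 to 59.3 in HIF1α/HIF2α-KO libraries. None of these 6 passed in any comparison. In HIF1α/HIF2α-KO against hypoxic control cells all 6 had log2 fold changes between -0.78 and -0.54, where 48.2% of all miRNAs lay above 0. Only miR-200c-3p had a small SE (-0.54, SE 0.16). The intervals of the others held differences of either sign, such as -3.51 to 2.02 for miR-205-5p. Hypoxic control replicate 1, the library with the most miR-126, had miR-205-5p at 18.6 normalized CPM, against 0.73 in replicates 2 and 3. For miR-200a-3p it had 17.3, against 1.47 and 1.38. Over all libraries, the 5 blood cell miRNAs summed to 3.32 to 19.6 normalized CPM, the 2 miRNAs of smooth muscle and stroma to 115 to 395 and the 4 miRNAs abundant in glioblastoma to 198117 to 301285. Of the 5 blood cell miRNAs, 2 passed the filter on low counts and were tested. No tested miRNA of these lists passed in any comparison. The part of any of these lists in the results on the cluster was not tested. In bulk RNA, a change in the share of cells and a change in the amount per cell cannot be told apart.

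Because the 3 miRNAs come from a single primary transcript, their proportions within a library were examined. The proportions do not depend on how libraries are scaled to each other. miR-182-5p made up 66.7% to 78.2% of the counts of the 3 members (median 71.3%), miR-183-5p 14.1% to 23.1% and miR-96-5p 7.75% to 12.6%. Together the members took 0.0186% to 0.0417% of all counts. Their summed level was 228 ± 44.8 normalized CPM in hypoxic control cells (SD, n = 3), 264 ± 30.8 in normoxic control cells, 310 ± 48.3 with HIF1α knocked out, 322 ± 32.7 with HIF2α knocked out and 345 ± 55.0 with both knocked out. Sequence-dependent efficiency of ligation and amplification also enters a ratio between different miRNAs, and was not measured here.

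The ratio of miR-182-5p to miR-183-5p was lowest in hypoxic control cells, at 3.27, 2.88 and 3.49 in replicates 1 to 3 (3.21 ± 0.31, SD, n = 3). HIF1α-KO cells had 3.90, 4.25 and 4.58 (4.24 ± 0.34) and HIF2α-KO cells 3.77, 5.56 and 4.20 (4.51 ± 0.93), and both lay above the hypoxic control without overlap. HIF1α/HIF2α-KO cells, at 3.31, 3.66 and 3.94 (3.64 ± 0.32), and normoxic control cells, at 4.17, 3.59 and 3.48 (3.75 ± 0.37), overlapped it. The log2 difference from the hypoxic control was 0.40 (SE 0.10) in HIF1α-KO and 0.47 (SE 0.19) in HIF2α-KO cells, each with an exact permutation p of 0.1 and 0.343 after Benjamini-Hochberg adjustment over the 12 ratio tests. The 2 single knockouts were thus higher in this ratio without passing the adjusted test, which 3 against 3 libraries could not have passed. The share of other miRNA ratios that were higher without overlap was not determined. For single miRNAs it was 10.1% in HIF1α-KO and 9.07% in HIF2α-KO against hypoxic control cells.

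The ratio of miR-182-5p to miR-96-5p was 6.70 ± 0.83 in hypoxic control cells (SD, n = 3), 6.07 ± 0.49 in normoxic control cells, 6.66 ± 0.24 with HIF1α knocked out, 8.75 ± 1.41 with HIF2α knocked out and 6.90 ± 1.81 with both knocked out. In HIF1α-KO cells the 2 miRNAs thus had nearly equal fold changes, whereas the HIF2α-KO libraries, at 7.27, 10.1 and 8.90, were high without being separate from the hypoxic control libraries at 7.57, 6.58 and 5.93. The ratio of miR-183-5p to miR-96-5p was 2.10 ± 0.35 in hypoxic control and 1.58 ± 0.18 in HIF1α-KO cells. It was 1.95 ± 0.15 in HIF2α-KO, 1.91 ± 0.52 in HIF1α/HIF2α-KO and 1.62 ± 0.11 in normoxic control cells. None of the 12 ratio tests passed after adjustment, and the exact permutation p of the others ranged from 0.2 to 1.

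**Figure D4:**
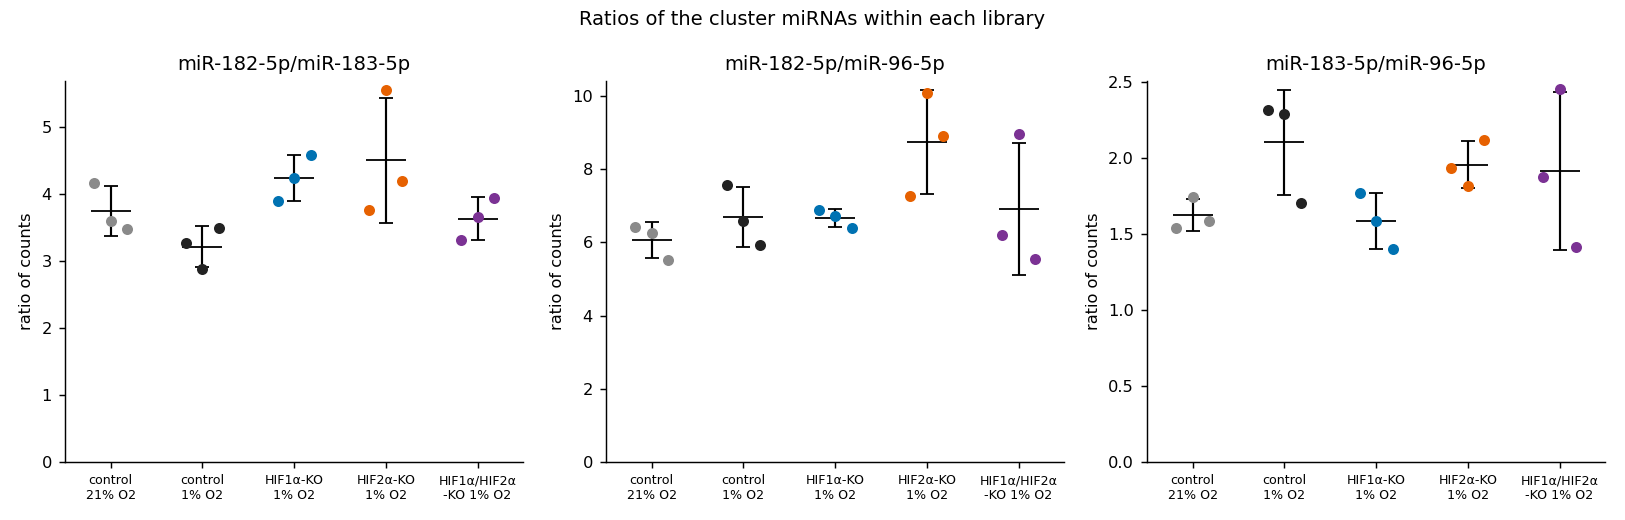
Ratio of the counts of 2 cluster members within each library (vertical axes, linear from 0), by group; points are libraries, and bars and whiskers give the mean and SD of 3 libraries. The miR-182-5p to miR-183-5p ratio of HIF1α-KO and HIF2α-KO libraries, 3.77 to 5.56, lies above that of the hypoxic control libraries, 2.88 to 3.49.

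Across libraries the levels of the members were positively correlated, also within groups, where miR-182-5p and miR-183-5p were the closest pair. Over the 15 libraries, Pearson's r of the log2 CPM levels was 0.75 between miR-182-5p and miR-183-5p (Spearman's rho 0.77), 0.65 between miR-182-5p and miR-96-5p (0.64) and 0.69 between miR-183-5p and miR-96-5p (0.66). Without the 2 libraries farthest from the median of the first-named miRNA, r was 0.62, 0.60 and 0.59. After the group means were subtracted, r was 0.93, 0.52 and 0.74. miR-182-5p and miR-183-5p were then each other's closest match among the 561 other miRNAs tested, and lay on the same side of their group means in 14 of 15 libraries. In contrast, miR-96-5p was only the 43rd closest match of miR-182-5p, and miR-182-5p the 61st of miR-96-5p. For miR-183-5p, miR-96-5p ranked 7th, and miR-183-5p ranked 8th for miR-96-5p. These correlations describe 15 libraries that share groups and scaling factors, and no test was made of them.

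**Figure D5:**
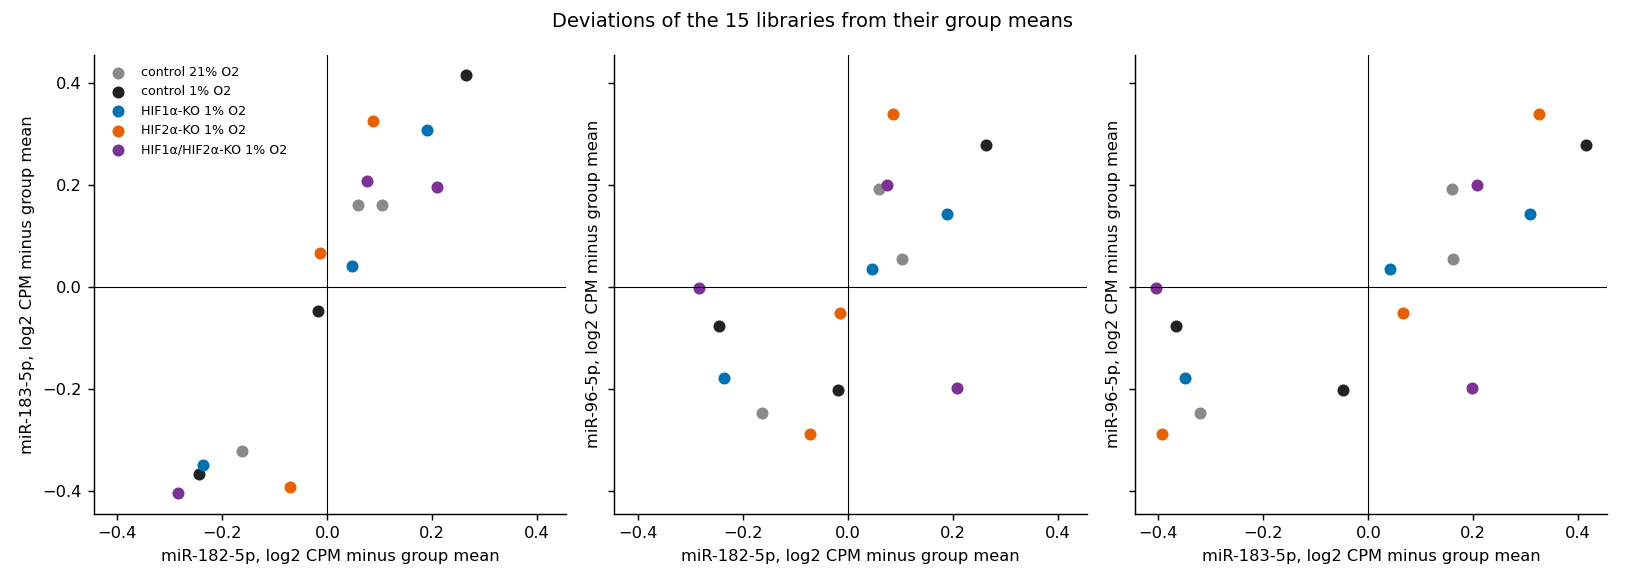
Deviation of each library from its group mean on the log2 CPM scale for each pair of members (both axes), coloured by group; each point is 1 of the 15 libraries. miR-182-5p and miR-183-5p fall along a line (r = 0.93), and the points of miR-96-5p scatter more widely (r = 0.52 with miR-182-5p and 0.74 with miR-183-5p).

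The miRNAs whose pattern over the 15 libraries was most like that of the summed cluster were miR-146a-5p (Pearson's r 0.68, Spearman's rho 0.64), miR-5010-3p (0.66, 0.64), miR-146b-5p (0.66, 0.63), miR-664a-5p (0.65, 0.70) and miR-29b-1-5p (0.64, 0.65). They were the highest of 559 miRNAs compared, whose median r was 0.01, with 5th and 95th percentiles of -0.49 and 0.46. miR-146a-5p and miR-146b-5p share a seed, and miR-146a-5p is known to be induced by NF-κB. With the group means subtracted, r was 0.40, 0.08, 0.25, 0.54 and 0.55 in the same order, so the likeness of miR-5010-3p lay between the groups rather than within them. In HIF1α/HIF2α-KO against hypoxic control cells, miR-5010-3p rose by 1.10 on the log2 scale (edgeR adjusted p = 0.0111), and the other 4 had values of 0.38 to 0.63 that did not pass.

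The other miRNAs listed from the long arm of chromosome 7 were examined as neighbours of the cluster. Of the 10 mature miRNAs listed, 8 passed the filter and come from hairpins 721.1 to 1562.4 kb away, and the other 2, miR-593-5p and miR-593-3p, were not analysed here. miR-29b-3p and miR-129-5p also arise from hairpins on other chromosomes. None of the 8 passed in any of the 8 comparisons. In HIF1α/HIF2α-KO against hypoxic control cells, 5 of the 8 had log2 fold changes above 0, with a median of 0.48 against -0.02 over all miRNAs. The highest was 0.94 for miR-29b-3p (SE 0.27, edgeR adjusted p = 0.0534), of a family known to repress collagen genes. The lowest was -1.65 for miR-335-3p (SE 0.48, adjusted p = 0.0534), which comes from an intron of MEST. The miRNAs of this arm thus had log2 fold changes of both signs. Those of the 3 cluster members were all above 0 in the 3 comparisons of knockout with hypoxic control cells, which share their control libraries. So were those of miR-29a-3p, miR-29b-3p and miR-29b-1-5p, but not those of the rest of the 8. Over all miRNAs, 44.1% lay above 0 with HIF1α lost, 48.6% with HIF2α lost and 48.2% with both lost. When a replicate was left out, miR-183-5p fell as low as -0.032 with HIF1α lost and -0.039 with HIF2α lost.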

How the data were processed

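For each library the authors deposited counts of mature miRNAs, as whole numbers without normalization, with 1707 miRNAs in each of 15 libraries. The submitters' processing notes name HISAT2, StringTie and DESeq2 without version or role, and the supplementary methods name quantile normalization with limma, which had not been applied to the deposited counts. The genome build and the rules for reads that match several miRNAs are not given in the sources used here. Samples were grouped by the genotype, oxygen level and replicate number in their labels. The members and all lists were chosen with earlier results of these data known.

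The model was fitted in edgeR 4.0.16 (R 4.3.3) to the 562 miRNAs that filterByExpr retained, with TMM normalization and 1 mean for each of the 5 groups. Contrasts were tested by quasi-likelihood, and p-values were adjusted by the Benjamini-Hochberg method across these 562 miRNAs (threshold 0.05). The miRNAs removed by the filter held at most 0.0117% of the counts of a library. Confidence intervals are at the 95% level. Differences in normalized CPM and in log2 count ratios (0.5 added) were tested with two-sided exact permutation tests. Within a group, no libraries were copies of each other, since chi-square per degree of freedom was at least 49.3 for any 2 of them. The fits were tested on simulated data. The miRNAs named were the members, the opposite arms, miR-1271-5p, the listed miRNAs of chromosome 7, miR-210, the marker lists and the 5 miRNAs with the highest Pearson's r with the summed cluster. Genomic positions and sequences came from GENCODE (GRCh38) and RefSeq (GRCh38.p14).

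Alternative scalings used DESeq2 size factors or total counts in the edgeR fit, or left out miR-21-5p. Alternative tests were the DESeq2 1.42.0 Wald test and limma 3.58.1 after quantile normalization of log2(CPM + 1). The filter was dropped, or replaced by a minimum of 10 counts in each of the libraries compared. Other fits used the compared libraries alone, a replicate block or the miR-126 split as a covariate, and each replicate was omitted in turn. The split lies at the largest gap in log2 CPM summed over both miR-126 arms.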

Additional observations from a re-analysis of the deposited data

How the results depend on the processing

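Under the 10 alternatives of the edgeR fit other than leaving out a replicate, 225 of the 240 member results kept their direction and their side of the threshold, and of the 162 results without a replicate 138 did. In HIF1α/HIF2α-KO against hypoxic control cells, miR-182-5p stayed above 0 but missed the threshold with limma (0.64), with no filter (0.67) and with only the libraries compared (0.62), and miR-96-5p passed with the DESeq2 Wald test (0.62). Over the 6 fits without a replicate, miR-182-5p ranged from 0.55 to 0.80, and in 4 of them, at 0.55 to 0.64, it missed the threshold too. The cause was not tested, although fewer libraries or more miRNAs enter several of these fits.

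The other changes of sign were in values that passed under no setting. Between HIF2α-KO and HIF1α-KO cells, miR-182-5p was at -0.078 with total counts, and miR-183-5p at -0.13 with total counts, -0.042 with no filter, -0.0036 with only the libraries compared and -0.026 with the miR-126 split. Without a replicate these ranged from -0.065 to 0.17 and from -0.17 to 0.18. Between HIF1α/HIF2α-KO and HIF1α-KO cells, miR-96-5p was at -0.016 with limma. Between hypoxia and normoxia, miR-183-5p was at 0.048 with total counts (a difference of 1.63 CPM), 0.026 with no filter, 0.022 with at least 10 counts, 0.092 with the miR-126 split and 0.0022 without miR-21-5p.

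When replicates were left out in turn, miR-183-5p ranged from -0.032 to 0.38 in HIF1α-KO and from -0.039 to 0.39 in HIF2α-KO against hypoxic control cells, and from -0.25 to 0.16 in hypoxia against normoxia, which in CPM were -2.08 to 11.4, -0.72 to 13.0 and -7.64 to 5.81. Between HIF1α/HIF2α-KO and HIF1α-KO cells, miR-182-5p ranged from -0.016 to 0.24 and miR-96-5p from -0.025 to 0.22. Between HIF1α/HIF2α-KO and HIF2α-KO cells, miR-182-5p ranged from -0.046 to 0.16. The interaction ranged from -0.058 to 0.37 for miR-183-5p and from -0.34 to 0.028 for miR-96-5p. Against hypoxic control cells, the log2 ratio of miR-182-5p to miR-96-5p ranged from -0.084 to 0.092 in HIF1α-KO and from -0.18 to 0.16 in HIF1α/HIF2α-KO cells, and that of miR-183-5p to miR-96-5p from -0.36 to 0.043 in HIF1α/HIF2α-KO cells.

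The number of miRNAs called, the background of the member counts, moved more. In HIF1α-KO against hypoxic control cells it was 7, with 12 for DESeq2, 0 with only the libraries compared and 2 to 6 without a replicate. In HIF2α-KO against hypoxic control cells it was 0, with 11 with no filter and 0 to 10 without a replicate. In HIF1α/HIF2α-KO against hypoxic control cells it was 33, with 50 for total counts, 60 for DESeq2, 61 for the miR-126 split and 15 to 32 without a replicate. In the comparison of HIF2α-KO with HIF1α-KO cells the number was 6 (5 higher and 1 lower), with 12 for total counts (2 higher and 10 lower), 20 for DESeq2, 14 with no filter, 14 with at least 10 counts, 0 with only the libraries compared and 2 to 18 without a replicate. In that of HIF1α/HIF2α-KO with HIF1α-KO cells it was 8, with 25 for DESeq2, 16 for limma, 26 with no filter, 4 with at least 10 counts, 0 with only the libraries compared, 5 for the miR-126 split and 0 to 14 without a replicate. Between HIF1α/HIF2α-KO and HIF2α-KO cells it was 10 (3 higher and 7 lower), with 16 for total counts (11 higher and 5 lower), 19 for DESeq2, 21 with no filter, 2 with only the libraries compared and 2 to 17 without a replicate. It was 0 in hypoxia against normoxia and for the interaction, with 15 and 5 with no filter.

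No consistent pairing of the libraries by the replicate numbers in the labels was detected. In 0 of 7 comparisons did all 3 pairs of same-numbered libraries deviate together from their group means with a correlation over 0.1. The mean correlation ranged from -0.26 to 0.24. In HIF2α-KO against hypoxic control cells the 3 correlations were 0.48, 0.17 and 0.05. With 3 libraries in a group, this rule cannot exclude a pairing. With the replicate block, miR-182-5p in HIF1α/HIF2α-KO against hypoxic control cells was at 0.64 (edgeR adjusted p = 0.0363), no member call changed, and the number of miRNAs called between HIF2α-KO and HIF1α-KO cells was 3 in place of 6. Depth was not the limit for the members, whose counting error was at most 6.77%, but it left the 3p arms and miR-1271-5p too low to compare.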
